A study of Triticum aestivum with 24 samples.

Results

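Drought in wild-type wheat leaves was read from 6 of the 24 libraries of the series: the 3 labelled WT well-watered and the 3 labelled WT drought. WT is the spring wheat line Fielder (Triticum aestivum, whose genome has the parts A, B and D), and in this study it is the parent line without a transgene. Per the labels, plants were kept at 80% field capacity until 4 weeks of age, and drought plants then went without water for 12 days; no source used here gives the day of leaf sampling. The other 18 libraries come from 3 lines that carry a wheat TOR transgene under the UBQ, DREM or DEH2 promoter, each with 3 well-watered and 3 drought libraries. They serve here as further libraries in which the WT response can be read again. The series' design text names 27 samples, a re-watered treatment and other genotype names, so groups follow the sample labels. All libraries carry the same batch label. The labels number the replicates without saying whether these were separate plants, so p-values measure the spread between these libraries, which may be technical.

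Leaves that lose water close their stomata, largely through the hormone abscisic acid. Photosynthesis then falls, protective proteins and compatible solutes accumulate, and in prolonged drought the leaf dismantles its chloroplasts. Genes for the photosynthetic machinery are among the most abundant transcripts of a watered leaf, which gives such a leaf a transcriptome dominated by few genes. The deposited identifiers carry the chromosome and the order of genes along it but no names, and 0 of 107891 matched the available table of named wheat genes. Each gene is thus known by its identifier alone, without a role, the leaf label could not be checked against marker genes, and the level of TOR was not analysed here. Leaf RNA is a bulk sample, in which fewer cells of a type and less RNA per cell cannot be told apart.

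A library and a stretch of chromosome stood apart. Replicate 1 of WT drought carried a set of very high genes, described further below, which held 22.3% of its normalized total. Along chromosome 2A, identifiers TraesCS2A02G238400 to TraesCS2A02G590600 (the 2A region) were low in WT drought and also in UBQ well-watered, but not in WT well-watered or UBQ drought. An exchange of labels between libraries, or plants of unlike origin under the label WT, was not tested. Either would bear on every WT drought value and not on the 2A region alone, and neither can be told apart from drought here. All results below follow the labels as given. Estimated depth was 33659865 to 42414463 reads per WT library. On the log2 scale WT libraries correlated across tested genes at r = 0.976 to 0.977 within the well-watered group, 0.974 to 0.983 within the drought group and 0.851 to 0.864 between them.

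The comparison of WT drought with WT well-watered addresses how water shortage alters the leaf transcriptome of the unmodified line. Of 60088 tested genes, 18147 rose and 18747 fell (limma with Benjamini-Hochberg adjustment, adjusted p under 0.05), which is 30.2% and 31.2% of all genes tested. Changes of 2-fold or more were called for 17515 genes, or 29.1%. Changes of under 2-fold made up 10245 of the rises and 9134 of the falls. At 2 to 4-fold there were 4371 rises and 5867 falls, and at 4 to 16-fold 2544 and 3085. From 16 to 64-fold the balance turned, with 647 genes higher and 561 lower, and beyond 64-fold there were 340 and 100. Log2 changes and these size classes are on the log2(value + 1) scale, which understates the change of low genes, whereas the ratios given for single genes are ratios of mean normalized counts. Without replicate 1 of WT drought, 16821 of the rises and 17317 of the falls were called again and 0 genes changed direction. Similar copies of a gene on A, B and D chromosomes can share reads, so the level of any single copy is uncertain. After rescaling to a common sum per library, 59.8% of the calls were rises against 49.2% with the authors' scaling, and the median change of all genes moved from -0.01 to 0.16.

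Genes that were all but silent in watered leaves and strongly expressed under drought led the rises. TraesCS6A02G350500, on chromosome 6A, had 0 in each well-watered library and reached 23830, 21560 and 19630 normalized counts in the drought libraries. This is at least 4840-fold higher when each well-watered library is set at a floor of 3 reads (limma adjusted p = 1.8e-21). Its watered means in the lines were at most 0.3705, and under drought it averaged 14850 in UBQ, 11420 in DREM and 766.6 in DEH2. TraesCS5A02G153900, on 5A, stood at 7.251, 3.87 and 11.42 in well-watered leaves and at 118700, 127300 and 122700 under drought. The groups are far apart, and the ratio of 16400 rests on about 15.3 reads summed over the well-watered libraries, with a 95% Poisson counting interval from 9960 to 29000. Under drought this gene averaged 30060 in UBQ, 12470 in DREM and 2668 in DEH2, so WT had the highest mean of the 4 genotypes.

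The deepest falls ended close to the limit of detection. TraesCS5B02G014700 was at 2253, 2329 and 2283 in well-watered leaves and at 2.748, 0 and 4.083 under drought, a log2 change of -9.74 with a standard error of 0.47 (limma adjusted p = 4.81e-12). Its drought values rest on about 5.98 reads over the 3 libraries. TraesCS1D02G338100 went from 5675, 6880 and 6654 to 5.455, 6.896 and 7.152, a log2 change of -9.74 with a standard error of 0.14 (limma adjusted p = 2.09e-30). In the lines this gene changed by -8.32 to -6.78 on the log2 scale, while TraesCS5B02G014700 had a log2 change of -0.89 in UBQ, where its watered level was already down at 311.7.

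Among genes expressed at 50 or more in both WT groups, the largest rises were on group 3 chromosomes. TraesCS3D02G357200 stood at 89.69, 124.3 and 83.96 in well-watered leaves and at 46350, 48120 and 45260 under drought, a 469-fold ratio (limma adjusted p = 2.04e-29). TraesCS3A02G363700 went from 152.8, 130.3 and 163.8 to 51670, 52980 and 51260, a 349-fold ratio (limma adjusted p = 1.12e-33). Both genes were at 9937 to 24140 in the drought means of the lines, below each WT drought library. The deepest falls of this kind were TraesCSU02G167700, which has no assigned chromosome and went from 56150, 55630 and 45290 to 393.4, 529.2 and 619.3, and TraesCS2B02G079500, which went from 12130, 11790 and 9716 to 105.4, 146.9 and 170.8. The WT groups of these 4 genes do not overlap, and drought replicate 1 lies near its sisters.

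**Figure D1:**
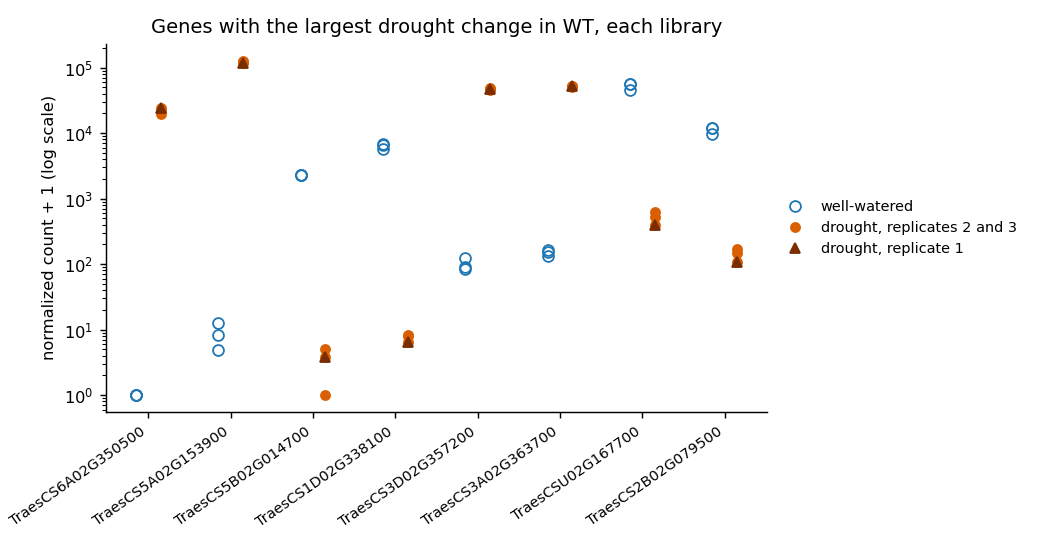
Normalized count plus 1, on a log axis, of the 8 genes with the largest drought change in WT, 4 of them over all genes and 4 among genes at 50 or more in both groups; each symbol is 1 library. The 3 well-watered and 3 drought libraries of each gene are apart, and drought replicate 1 (triangles) lies with replicates 2 and 3, as for TraesCS3A02G363700 at 51670 against 52980 and 51260.

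By a floor of 3 reads, more genes were counted as switched on than as switched off. A gene was counted as switched on when all well-watered WT libraries were at 3 reads or less and all drought libraries at 50 or more, and as switched off for the opposite. There were 311 genes switched on and 61 switched off among the 60088 tested (324 and 75 without replicate 1 of WT drought). By the looser measure of WT groups that do not overlap, 31.2% of tested genes were higher and 32.4% lower. The 3 reads equal 4.43, 4.627 and 4.366 normalized counts in the well-watered libraries and 4.182, 2.948 and 3.056 in the drought libraries. The limit for silence was thus higher in watered leaves, which favours switched-on genes, and its effect on the counts was not tested. Switched-on genes reached a median of 171 normalized counts under drought, and 26 of them a mean of 1000 or more. Switched-off genes had a median of 127 in watered leaves, and 0 reached 1000. The switched-on genes were spread over the subgenomes, with 103 on A, 89 on B and 119 on D chromosomes, and 5 lay in the 2A region. Tested genes numbered 17752 on A outside the region, 1939 in the region, 19748 on B and 19829 on D.

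The lines give a second reading of these switches, from other libraries but within the same fit and under the labels as given. Of the 311 genes switched on in WT, 302 rose in UBQ, 305 in DREM and 285 in DEH2 (limma adjusted p under 0.05), where 37.2%, 35.2% and 35.1% of all tested genes rose. All 3 lines showed the rise for 279 genes, and 0 fell in all 3. Of the 61 genes switched off, 53 fell in UBQ, 59 in DREM and 56 in DEH2, where 35.6%, 33.7% and 34.5% of all tested genes fell.

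Abundant transcripts fell most often. Genes were sorted by their mean over all 24 libraries. Among the 481 genes with a mean of 10000 or more, 324 fell and 115 rose in WT, or 67.4% and 23.9%, with a median log2 change of -0.82. In the classes below, the split was more even: 46.7% fell and 40.6% rose at 3000 to 10000, and 33.5% fell and 39.5% rose at 300 to 1000. Genes under 30 were called least, with 22.7% lower and 17.7% higher. Sorting by the 18 libraries of the lines alone gave 68.8% lower among 464 genes of 10000 or more. The WT log2 changes do not use those libraries, but the estimate of spread behind the calls does. The share that fell in the top class was 61.5% after rescaling to a common sum and 54.1% after quantile normalization.

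**Figure D2:**
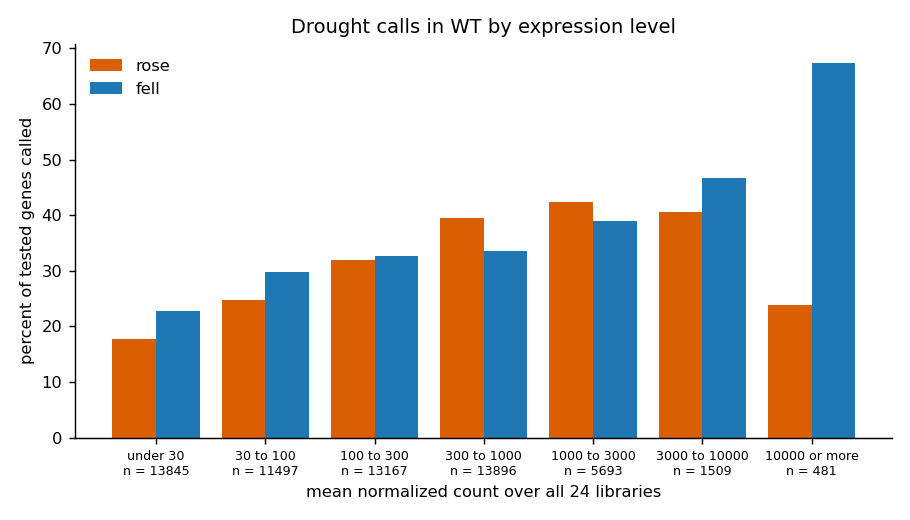
Percent of tested genes that rose or fell with drought in WT (limma adjusted p under 0.05), in classes of mean normalized count over the 24 libraries; n is the number of tested genes in the class. Falls outnumber rises most in the class of 10000 or more, at 67.4% against 23.9%.

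The same shift shows in how the total was divided, except in drought replicate 1. The 464 genes of 10000 or more in the lines' libraries held 42.6%, 42.2% and 41.2% of the normalized total in well-watered WT libraries, and 43.1%, 29.2% and 29.3% in the drought libraries. Replicate 1 lay just above the well-watered libraries and its sisters far below. The exact permutation test, two-sided, gave p = 0.4, where 0.1 is the smallest that 3 against 3 libraries can give. With the high set of replicate 1 left out of every library, the shares were 42, 41.6 and 40.8% against 29.4, 28.7 and 28.9%. That set was chosen by its high values in replicate 1. Leaving it out lowers that library by construction, so these shares are a description without a test. The 50 most abundant genes of each library held 17.3, 16.9 and 16.6% in well-watered and 29, 12.6 and 12.6% in drought libraries. Without that set they held 17.3, 17 and 16.6% against 12.8, 12.6 and 12.6%, also as a description.

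The 2 most abundant genes of well-watered WT leaves stayed near the top under drought. TraesCS4A02G177500 was at 660300, 630000 and 624700 in well-watered libraries and at 468100, 452300 and 448500 under drought, a log2 change of -0.48 with a standard error of 0.05 (limma adjusted p = 3.83e-09). TraesCS4D02G135000 went from 639600, 621200 and 617300 to 388400, 379800 and 382700, a change of -0.71 with a standard error of 0.06 (limma adjusted p = 2.01e-10). The groups of neither gene overlap. After quantile normalization the limma adjusted p was 0.109 for the first and 0.105 for the second, so neither was called there. That scaling gives genes of equal rank equal values. By group mean these were the 2 most abundant genes in watered WT and, without replicate 1, in WT drought. It thus cannot show whether they fell. In the lines the first gene changed by -2.57 to -4.48 and the second by -3.25 to -5.48, and the difference of WT from the mean of the lines was 2.98 (limma adjusted p = 2.05e-25) and 3.62 (limma adjusted p = 1.94e-23).

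Drought calls were spread evenly over chromosomes outside the 2A region. Chromosome medians lay between -0.05 on 7A and 0.05 on 1D, the share of genes that rose between 27.7% on 7A and 34.4% on 4D, and the share that fell between 28% on 1B and 33.2% on the rest of 2A. By subgenome, 5464 of 17752 A genes outside the region rose and 5436 fell, 6050 of 19748 B genes rose and 5895 fell, and 6285 of 19829 D genes rose and 5907 fell. The D genes thus had 31.7% higher and 29.8% lower, against 30.6% and 29.9% for B.

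The 2A region moved as a block. Of its 1939 tested genes, 1275 fell and 167 rose in WT, or 65.8% and 8.61%, against 30% and 30.9% of tested genes outside it. The median log2 change was -0.86. The drought libraries had medians of -0.86, -0.84 and -0.85 relative to the well-watered mean, so replicate 1 lay with its sisters. The other tested genes of 2A had a median of -0.03, those of 2B -0.01 and those of 2D 0.01. Across the region the middle of the distribution ran from -1.48 at the lower quartile to -0.23 at the upper, and 41.3% of the genes lay between -1.5 and -0.5, against 18.3% of genes elsewhere. The median was -0.79 for genes with a mean under 100, -0.87 from 100 to 1000 and -0.98 from 1000 upward.

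Along the chromosome the drop began between neighbouring windows. In windows of 30 tested genes, the window from TraesCS2A02G237200 to TraesCS2A02G243200, which crosses the start of the region, had a median change of 0.03, and the next, to TraesCS2A02G247300, had -0.82. A share of 0.667 of the crossing window already lay inside the region, so the drop was not visible at the region's first identifiers. All 63 windows inside the region were below 0, from -1.37 to -0.33, and in 60 of them each drought library was below -0.3. Outside it, 22 of 41 windows were below 0 and 5 met that second condition. All 3441 genes of the region, untested ones included, held 3.45, 3.47 and 3.45% of the normalized total in well-watered and 1.35, 1.75 and 1.75% in drought libraries. With the high set of replicate 1 left out, drought libraries were at 1.74, 1.76 and 1.76% and well-watered libraries at 3.48 to 3.51%. The region was set apart because of its low values in these libraries, so its counts and shares are a description.

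**Figure D3:**
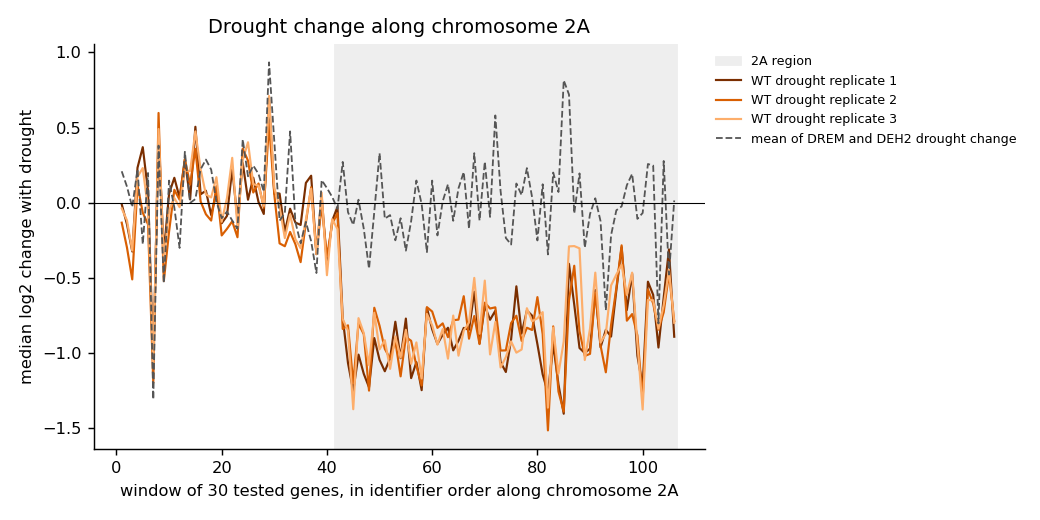
Median log2 change with drought in windows of 30 tested genes, in identifier order along chromosome 2A, for each WT drought library against the WT well-watered mean and for the mean of the drought changes in DREM and DEH2 (UBQ is not drawn, as its watered libraries were low here too). All 3 WT libraries drop together in the shaded 2A region, where the medians of DREM and DEH2 over all 1939 genes were 0.02 and -0.01.

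The region's drought change in WT differed from that of the lines. The median changes were 0.82 in UBQ, 0.02 in DREM and -0.01 in DEH2, and 1349 of the 1939 genes fell more or rose less in WT than in the mean of the lines while 126 did the reverse (limma test of the difference, adjusted p under 0.05; 24.8% and 27.1% of all tested genes). Relative to WT well-watered, the region stood at -0.86 in WT drought and -0.81 in UBQ well-watered and between 0 and 0.06 in the other 5 groups. Genes whose 6 libraries of WT drought and UBQ well-watered all lay below the other 18 made up 23.7% of the region, against 0.40% outside it.

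Single genes of the region did not all follow its median. TraesCS2A02G467500 rose from 0, 4.554 and 5.724 to 1820, 1510 and 1350, and it rose in the lines as well, by 10.28 to 11.1 on the log2 scale. TraesCS2A02G477000 rose from 2.898, 0 and 0 to 632.4, 572.8 and 649.3, a ratio of 640 with a 95% Poisson counting interval from 175 to 5440. The deepest falls were TraesCS2A02G295400, from 764.5, 777.9 and 752.5 to 2.756, 1.968 and 1.02, and TraesCS2A02G513200, from 113.2, 138.9 and 137.6 to 4.812, 0 and 0. In the lines these changes were smaller, at -2.7 to -5.64 for the first and -1.79 to -3.23 for the second. With the region set apart, 17980 of 58149 genes rose and 17472 fell in WT, or 30.9% and 30%. At 2-fold or more these were 7793 and 8800 genes, or 13.4% and 15.1%.

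Some neighbouring genes moved together over short stretches. In identifier order, 24 runs of at least 4 consecutive tested genes rose 4-fold or more in WT and 23 runs fell as much, with 104 and 103 genes, where 5.88% and 6.23% of all tested genes passed that size in each direction. The runs named next were chosen after their values were seen, as the longest and those like them in place. Group 2 chromosomes, which hold 16.4% of the tested genes with an assigned chromosome, held 12 of the falling runs and 7 of the rising runs. Of these, 1 falling and 1 rising run lay in the 2A region. A further falling run, from TraesCS2A02G590600 to TraesCS2A02G591200, starts at the region's last identifier and continues past it. Neighbours of this kind can be near-identical copies, and reads could be divided between them by the authors' quantification, so run totals are safer than single genes.

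The longest falling runs lay near the start of the 3 group 2 chromosomes and had like levels. The 8 genes from TraesCS2A02G066400 to TraesCS2A02G067300 summed to 150000, 142000 and 119000 in well-watered libraries and to 4460, 4870 and 5600 under drought. The first of them, TraesCS2A02G066400, had few reads, at 11.73, 6.116 and 10.09 against 6.836, 0.9851 and 0. Its groups overlap and its log2 change was -2, at the limit for a run. The 7 genes from TraesCS2D02G064900 to TraesCS2D02G065600 summed to 148000, 141000 and 119000 and to 4130, 5610 and 5290. The 6 genes from TraesCS2B02G078900 to TraesCS2B02G079500 summed to 124000, 118000 and 102000 and to 2520, 3360 and 3730.

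Those 3 runs were lower under drought in every line too, with median changes from -2.67 to -4.72 against -4.57, -4.78 and -5.04 in WT. All 21 members fell 4-fold or more without replicate 1. In 20 of the 21, the fall was called in all 3 lines, as it was for 65.5% of all genes that fell 4-fold or more in WT. The change in WT differed from the mean of the lines for 16 of the 21 genes (limma test of the difference, adjusted p under 0.05), against 51.8% of all tested genes.

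Rising runs on 1A and 1D started from low totals. The 5 genes from TraesCS1A02G265600 to TraesCS1A02G266000 summed to 88.3, 89 and 122 in well-watered libraries and to 11300, 10300 and 10200 under drought, and the 4 genes from TraesCS1D02G265800 to TraesCS1D02G266100 to 34.7, 34.7 and 46.8 and to 4940, 4390 and 4450. Both had their lowest median in DEH2, at 2 and 1.39 against 6.82 and 6.6 in WT.

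The longest rising run did not behave alike in the lines. The 7 genes from TraesCS2A02G034000 to TraesCS2A02G034600, which lie outside the 2A region, summed to 100, 83.4 and 77 in well-watered WT and to 1260, 1100 and 997 under drought, with a median log2 change of 3.16. The medians were -1.63 in UBQ, 0.03 in DREM and -2.49 in DEH2. None of the 7 rose in all 3 lines, and the difference of WT from the mean of the lines was called for all 7 (limma adjusted p under 0.05). Among the falling runs, the 4 genes from TraesCS1D02G277600 to TraesCS1D02G278200 summed to 713, 705 and 725 and to 102, 119 and 69.4 in WT, a median of -3.35, with medians of 0.71, 0.30 and 0.34 in UBQ, DREM and DEH2. These medians hide a split, as the fall was called in all 3 lines for 2 of the 4 genes. In identifier order, the differences of WT from the mean of the lines were 0.71, -4.94, -6.77 and -1.41.

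For genes without an assigned chromosome, replicate 1 of WT drought decided the total. All 2691 of them held 1.48, 1.47 and 1.33% of the normalized total in well-watered libraries and 10.1, 1.65 and 1.56% under drought. Of the 820 tested, 181 rose and 234 fell, or 22.1% and 28.5%, below the shares over all genes in both directions. The exact permutation test on the shares of all 2691 gave p = 0.1. With the set of replicate 1 left out, their share was 0.975, 0.98 and 0.973% against 1.28, 1.29 and 1.29%, as a description. The normalized total of all genes also differed, at 52250744, 51913205 and 50021935 in well-watered libraries. Under drought it was 54345847 in replicate 1, with the set included, and 41683153 and 41766187 in its sisters. A smaller total raises the share of genes whose counts stay the same. A rise in the counts of the unplaced genes as a class was not tested.

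Some unplaced genes changed alike in all 3 drought libraries. TraesCSU02G057200 rose from 28.85, 24.01 and 14.13 to 434.6, 499.4 and 517.2, and TraesCSU02G057300 from 51.93, 16.51 and 33.92 to 648.7, 600.2 and 635.2. TraesCSU02G023100 fell from 3020, 2745 and 2558 to 5.484, 18.71 and 31.65, a log2 change of -7.43 with a standard error of 0.52 (limma adjusted p = 9.34e-10). The groups of these 3 genes do not overlap. With TraesCSU02G167700, described above, they are the unplaced genes with the largest changes in each direction.

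The genes that set replicate 1 apart were 194 tested genes at 50 or more in that library and at least 4-fold above both sisters; the values of this library chose them, so what follows is a description. The member nearest the threshold was 4.06-fold above the higher sister, and the nearest gene outside was at 3.94-fold. The median member was 20.9-fold above the higher sister. Of the members, 46 had no assigned chromosome and 148 lay on the 21 chromosomes, 18 of them on 5D, 16 on 1D and 13 on 1A. Of the 60088 tested genes, 820 were unplaced, 3307 lay on 5D, 2640 on 1D and 2486 on 1A. Some members had near-identical values, such as TraesCSU02G267800, TraesCSU02G265300 and TraesCSU02G265500 at 34790, 34780 and 34770 in drought replicate 1. The counts of members may thus include copies that share reads. The set held 1.23, 1.17 and 0.89% of the total in well-watered WT libraries, 22.3% in drought replicate 1, and 0.848% and 0.654% in its sisters.

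The highest member, TraesCSU02G056800, was at 182700, 181900 and 127800 in well-watered libraries and at 3274000, 107800 and 80370 under drought. Replicate 1 is far above every other WT library, and its sisters lie below the well-watered group. The log2 change was 0.91 with all libraries (limma adjusted p = 0.439) and -0.80 without replicate 1 (limma adjusted p = 0.228), and neither passed the threshold. Of the 194 members, 5 were called higher and 2 lower with all libraries, and 0 higher and 35 lower without replicate 1. Over all tested genes, 30.2% were higher and 31.2% lower with all libraries, and 28.9% and 29.9% without replicate 1. In DEH2 well-watered replicate 1 the same genes held 3.94% of the total, against 1.39% and 0.915% in its sisters, and 42 of the 194 were there at least 4-fold above both. Sisters also differed in UBQ drought (1.26, 0.766 and 2.81%), DREM drought (2.62, 1.67 and 1.51%) and DREM well-watered (0.894, 1.77 and 1.44%). They were closer in UBQ well-watered (0.812, 0.792 and 0.835%) and DEH2 drought (1.05, 1.06 and 1.11%). The source of these high values was not tested.

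**Figure D4:**
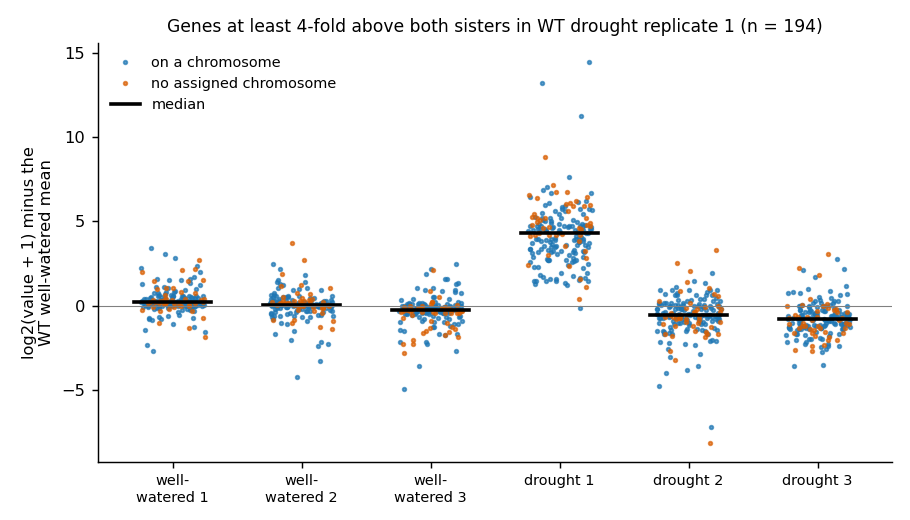
Level of the 194 genes that are at least 4-fold above both sisters in WT drought replicate 1, as log2(value + 1) minus the WT well-watered mean, in each WT library; dots are genes and black bars medians. The median is 4.3 in drought replicate 1 and -0.58 and -0.80 in replicates 2 and 3, and both genes on chromosomes and genes without one are high.

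The drought response of WT was next set against that of the lines, which share no library with it. Log2 changes across the 60088 tested genes correlated between WT and UBQ at r = 0.63, DREM at 0.67 and DEH2 at 0.609, as a description over genes, which are not independent replicates. The median size of the log2 change, whatever its sign, was 0.576 in WT (0.586 without replicate 1), against 0.868 for UBQ, 0.739 for DREM and 0.753 for DEH2. Of the WT changes of 2-fold or more, 84.8% had the same sign in UBQ, 87.2% in DREM and 84.5% in DEH2.

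Genes chosen in the lines alone show how WT behaved on the shared response. Of 2643 genes that rose 4-fold or more in all 3 lines, 2038 rose in WT (77.1%), 136 fell and 469 were not called, against 30.2% of all tested genes that rose. The WT median was 2.37, and the lines had 3.33 to 3.72, values that the choice in the lines raises. Of 2989 genes that fell as much in all 3 lines, 2697 fell in WT (90.2%) and 27 rose, with a WT median of -2.05. Over all tested genes 31.2% fell in WT. Without replicate 1 of WT drought the numbers were 2013 and 2669. In the other direction, of the 3531 genes that rose 4-fold or more in WT, 2950 rose in UBQ, 2990 in DREM and 2679 in DEH2, and 14 fell in all 3. Of the 3746 that fell as much in WT, 2890 fell in UBQ, 3043 in DREM and 2954 in DEH2, and 80 rose in all 3. Over all tested genes, 35.1% to 37.2% rose and 33.7% to 35.6% fell in the lines. In the 2A region, which holds 1939 of the 60088 tested genes, lay 279 of the 3746 genes and 52 of the 3531.

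The test of the difference between the WT drought change and the mean of the 3 lines called 31153 genes, 51.8% of those tested, with 16278 higher and 14875 lower in WT (limma adjusted p under 0.05). In 13024 of these the changes had the same sign and WT changed less, in 6782 WT changed more, and in 11347 the signs were opposite. Outside the 2A region these kinds made up 43%, 21.5% and 35.5% of the calls. The median difference rose with expression level, from -0.19 for genes under 30 to 0.34 at 3000 to 10000 and 0.59 at 10000 or more.

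**Figure D5:**
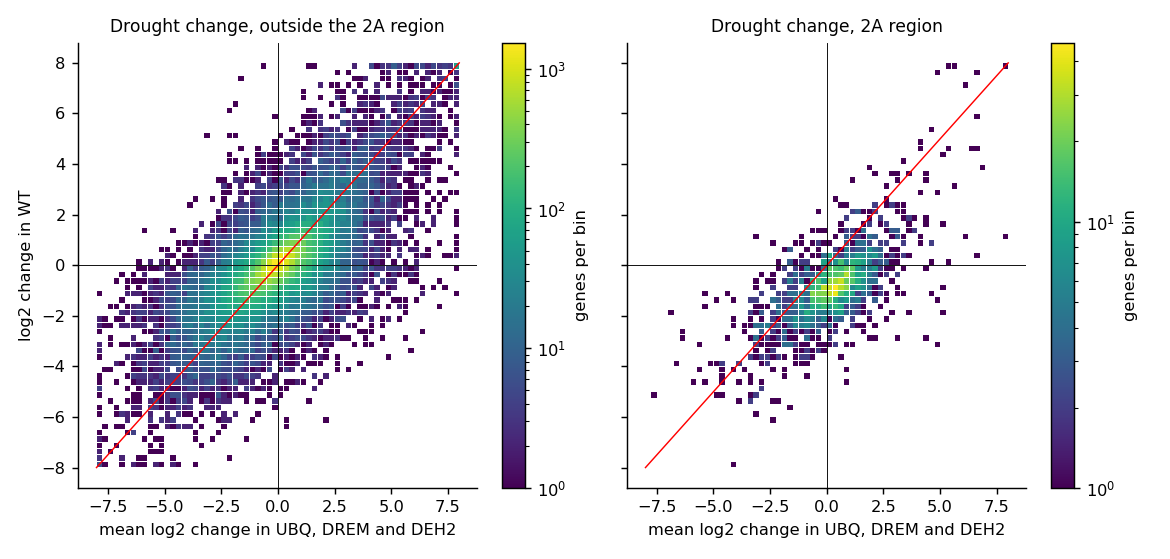
Log2 change with drought in WT (vertical) against the mean of the log2 changes in UBQ, DREM and DEH2 (horizontal), with genes counted in bins and the color on a log scale; the red line marks equal change and values beyond 8 are drawn at the edge. Outside the 2A region genes spread to both sides of the line, and the 1939 genes of the region are shifted below it, by a median of -1.11.

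The genes with the largest such differences changed in WT and hardly in the lines, or in opposite directions. TraesCS5D02G266000 rose in WT from 4.39, 7.63 and 8.633 to 1434, 1212 and 1114, while its drought means in the lines were 13.06 to 23.94, below the watered means of 34.99 to 42.73. TraesCS2D02G317000 was at 0 in all well-watered WT libraries and at 208.3, 247.9 and 191.7 under drought, at least 48.3-fold higher against 3 reads per library, and stayed between 9.293 and 34.01 in the means of all 6 line groups. TraesCS2D02G144900 fell in WT from 135.7, 117.3 and 109.1 to 2.466, 0 and 0.9101; it averaged 103.6 to 129.8 in DREM and DEH2 in either regime, and in UBQ it was at 0.3761 when watered and 142.4 under drought.

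TraesCS2D02G425300 was the least steady of these. It stood at 20.06, 75.99 and 141.7 in well-watered WT libraries and at 0, 11.82 and 7.155 under drought, and its WT change lost the call without replicate 1 (limma adjusted p = 0.0637 against 0.00928). In UBQ it rose from 0.4082 to 3079 and in DEH2 from 3.368 to 1701, while in DREM it fell from 269.3 to 12.53. The differences of WT from the mean of the lines were 9.08, 8.50, -8.13 and -8.50 for these 4 genes in the order given, each past the threshold. TraesCS2D02G144900 was thus low in WT drought and UBQ well-watered, the groups in which the 2A region was low. Close to it in identifier order, the 4 genes from TraesCS2D02G145100 to TraesCS2D02G145400 summed to 2260, 2060 and 2210 in well-watered WT and to 225, 280 and 238 under drought, and their median change was -3.16 in WT against 4.22 for UBQ, -0.44 for DREM and 0.36 for DEH2.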

How the data were processed

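RNA sequencing of wheat leaves gave 24 libraries in 8 groups of 3. The deposited values are normalized counts per gene, a signal scaled between libraries by the authors while library sums still differ. This holds the median gene near no change, so a general rise or fall of RNA cannot be seen. CASAVA, Trimmomatic, STAR, Salmon and DESeq2 are named without version, per the submitters' processing notes. Genome build and annotation: not given in the sources used here. Values are not whole numbers. Genes seen in 1 library only step by the value of 1 read, and 92.99% to 99.45% of them were whole multiples within 0.01, but over all genes 2.035% to 12.94% were, so a count model was not used. Estimated depth is the library sum over that step. A floor is 3 reads; floors and intervals cover counting error only.

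None of 22 gene lists and no marker could be matched to the identifiers, so none was tested. In R 4.3.3, log2(value + 1) of the 60088 genes at 10 or more in at least 3 libraries entered 1 limma 3.58.1 fit of the 8 groups, with intensity trend and robust prior, two-sided tests and Benjamini-Hochberg adjustment within a comparison; the data.table package (1.17.8) read the files. The step was tested on simulated data. The members, lists and the bounds of the 2A region were chosen with earlier results of these data known. Named genes are, per comparison, the 2 largest rises and 2 largest falls past the threshold whose WT groups do not overlap and whose mean reaches 50 in the higher group, and the 2 most abundant genes of each WT group. Alternatives were other pseudocounts, filters, scalings, priors, a fit of WT alone, a replicate block, and leaving out each WT library, the 2A region or unplaced genes. Sets based on replicate 1 of WT drought were added after seeing the data. Same-numbered WT libraries did not deviate together (r = 0.02, -0.014 and 0.018), so numbers do not pair them.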

Additional observations from a re-analysis of the deposited data

Results flagged for a closer look

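The drought change in WT differed from the mean drought change of the 3 TOR lines, by the test of the difference itself, in 31153 of the tested genes. For the 2A region the median of that difference was -1.11; it was tested gene by gene and not as a region.

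Among the genes named for their change or abundance in WT, 13 had a called difference from the mean of the lines. Larger and smaller below refer to that mean, and a single line can lie near WT. TraesCS5B02G014700 changed by -9.74 in WT and by -0.89, -5.99 and -9.19 in UBQ, DREM and DEH2. In the same order, TraesCS6A02G350500 changed by 14.4 and by 13.86, 13.12 and 9.34, and TraesCS2A02G477000 by 8.62 and by 3.86, 8.12 and 3.91. The rise was larger in WT for TraesCS6A02G350500 (2.29 on the log2 scale), TraesCS5A02G153900 (6.13), TraesCS3D02G357200 (2.22), TraesCS3A02G363700 (2.74) and TraesCS2A02G477000 (3.32). The fall was larger in WT for TraesCS5B02G014700 (-4.39), TraesCS1D02G338100 (-2.12), TraesCS2B02G079500 (-2.18), TraesCS2A02G295400 (-3.92) and TraesCS2A02G513200 (-3.72). The fall was smaller in WT for TraesCSU02G023100 (2.67), TraesCS4A02G177500 (2.98) and TraesCS4D02G135000 (3.62). The genes were chosen by their change in WT, which favours larger values there, except the last 2, which were chosen by abundance.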

How the results depend on the processing

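The number of genes called in WT ranged from 34281 to 38214 under other pseudocounts, filters, scalings and priors, and from 34704 to 35389 when 1 WT library was left out; at 2-fold or more it ranged from 14741 to 19532 and from 17106 to 17597. The difference from the lines had 29082 to 32208 and 29341 to 29899 calls. With the replicate block 36795 genes were called in WT and 31084 for the difference; same-numbered libraries did not deviate together, so the block pairs nothing.

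The median of the 2A region was -0.77 with a pseudocount of 5, -0.59 with no filter, -0.69 after rescaling to a common sum and -0.82 after quantile normalization, and -0.87 to -0.84 when 1 library was left out; the cause was not tested. The largest chromosome median outside the region was 0 with no filter and 0.22 after rescaling, which shifts all genes. TraesCSU02G056800 went from 0.91 to -0.80 without WT drought replicate 1 and reached 1.87 without replicate 3. Leaving out the 2A region gives no value for it, and the fit of WT alone none for the difference. Depth limits the falls that end at 3 reads or less.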
